A study of Mus musculus with 2 samples.

Results

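Imprinted genes are transcribed mainly from the allele inherited from 1 parent, and 37 of them, chosen by name from known mouse imprinted domains, were described in single cells of the mouse arcuate nucleus and median eminence. All 37 were among the 25619 genes listed in both libraries. By textbook assignment 16 are expressed from the maternal allele, 20 from the paternal allele, and Gnas gives different transcripts from each. No allele was read here, so every value below is the sum over both alleles. At least 200 UMIs (unique molecular identifiers, 1 for each captured mRNA molecule) were counted over both libraries for 30 members, between 50 and 199 for 4, and fewer than 50 for Mkrn3, H19 and Phlda2.

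The data were 2 Drop-seq libraries, in which single cells are captured in droplets with barcoded beads and the 3′ ends of their mRNAs are sequenced. The wild-type (WT) library held cells pooled from 7 mice and the Irx5KO library cells pooled from 6 mice of genotype Irx5-/-, a loss of the homeodomain transcription factor Irx5. Both were CD-1 mice aged 7 to 8 weeks, and live cells were sorted after microdissection. With 1 library per genotype there is no replicate check of any difference between genotypes, and none was tested. Each value is therefore given for both libraries, with 95% intervals that cover counting error only, and cells were not treated as replicates.

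After filtering, 1841 WT cells with 3960089 UMIs and 1949 Irx5KO cells with 4915775 UMIs were kept, with medians of 1621 and 1692 UMIs per cell. Irx5 had 13 UMIs in WT cells and 0 in Irx5KO cells, where a count of 0 allows up to 3 UMIs as a one-sided limit. The libraries shared 1 cell barcode, which was in no kept cell of both. Clusters were named from marker genes, giving 626 WT and 896 Irx5KO neuron-like cells, 282 and 400 tanycyte-like cells, and 11 smaller classes. Neuron-like cells made up 34.0% of the WT and 46.0% of the Irx5KO cells, and a difference in capture cannot be told apart from a difference in tissue. The largest group of WT neuron-like cells was a cluster led by Avp, Ttr and Scg2 (221 cells), whereas that of Irx5KO was a cluster led by Sst, Npy and Cartpt (354 cells). The 37 imprinted genes were left out of the genes used for clustering.

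Imprinted genes lie in domains in which a control region, methylated on 1 parental allele in the egg or sperm, sets the expression of several neighbours. Such domains often pair protein-coding genes with long noncoding RNAs, microRNAs or small nucleolar RNAs, and many encode regulators of growth, feeding and endocrine function. The hypothalamus is a site of strong imprinted gene expression, and loss of paternal expression from the Snrpn to Magel2 domain causes Prader-Willi syndrome in humans. Tanycytes are the radial glia-like cells of the ventricle floor in the median eminence, and the pars tuberalis is the part of the pituitary that wraps it.

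Levels are given as counts-per-million values (CPM), a gene's UMIs scaled to all UMIs of that class in that library, and are compared for the same gene between classes or genotypes, not between genes. The 37 genes together took 2.31% of the UMIs of neuron-like cells in WT and 2.22% in Irx5KO. In tanycyte-like cells they took 2.04% and 2.09%, and in oligodendrocyte-like cells 0.273% and 0.300%. A single gene accounted for much of this, since Meg3 gave 32.9% and 25.4% of the imprinted UMIs in neuron-like cells and Nnat gave 63.0% and 62.6% in tanycyte-like cells. The map of levels over 13 classes shows the neuron-like column as bright for most members and the Nnat row as brightest in the tanycyte-like, ependymal-like and astrocyte-like columns.

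**Figure D1:**
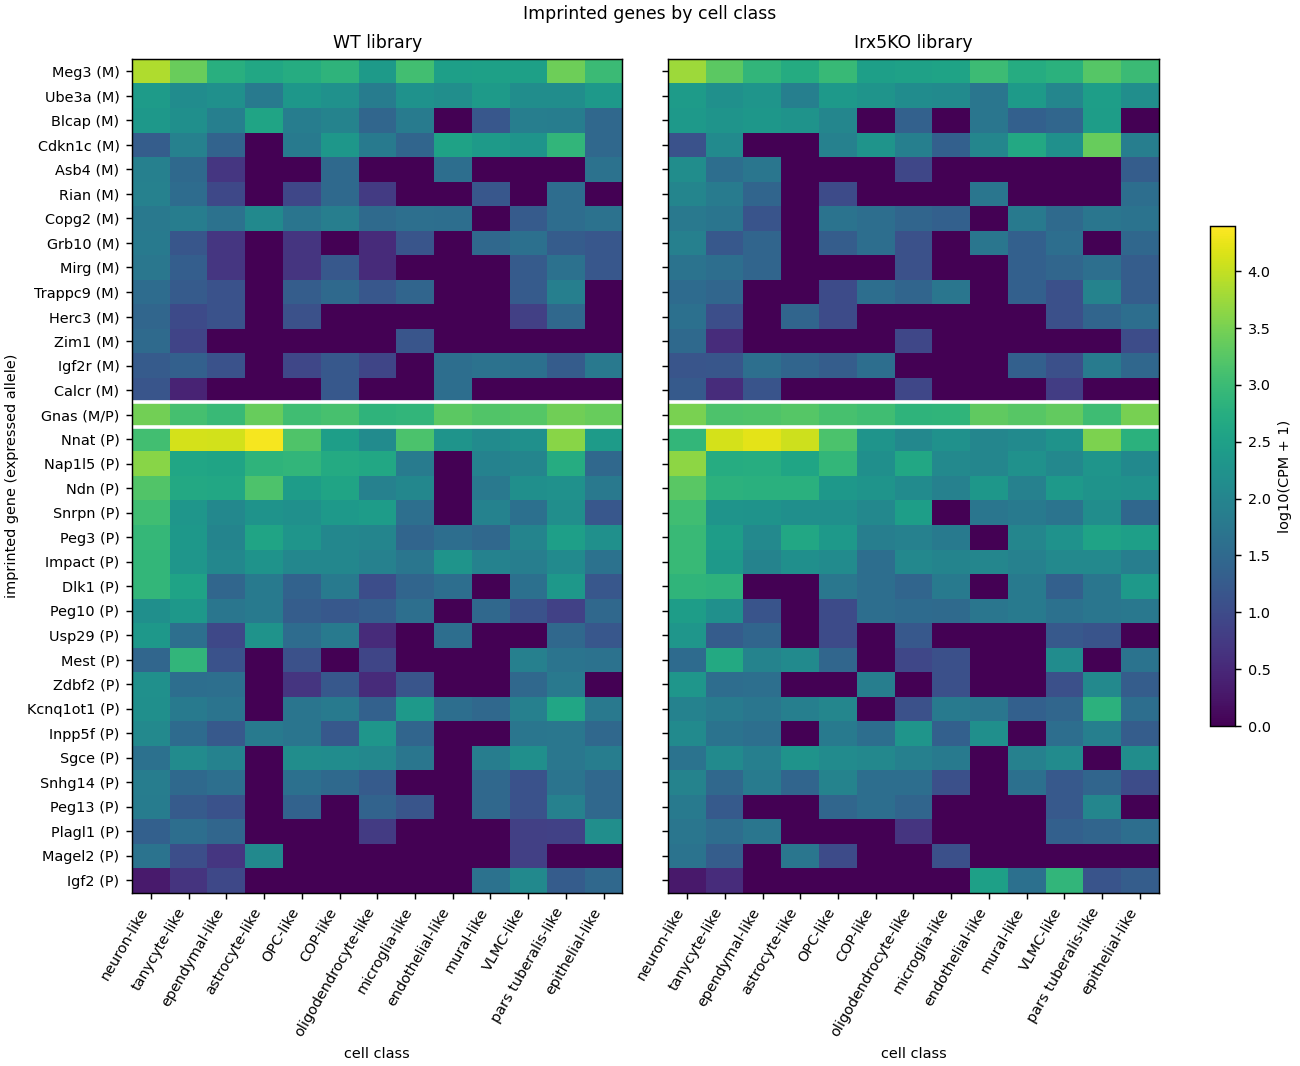
Level of 34 imprinted genes (rows) in 13 cell classes (columns) of the WT and Irx5KO libraries, as log10(CPM + 1) by colour. M or P gives the allele expressed by textbook assignment, not read here. Nnat reached 13070 CPM in Irx5KO tanycyte-like cells and 810 CPM in Irx5KO neuron-like cells, while Meg3 reached 5628 CPM in the latter.

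The level in neuron-like cells was set against that in all other cells of the same library. Of 34 members with at least 50 UMIs, 20 (58.8%) were at least 2-fold higher in neuron-like cells in both libraries, against 12.1% of the 14380 genes measured this way. At least 2-fold lower levels in both libraries were found for 5 members (14.7%), against 17.1% of all genes, and these were Sgce, Nnat, Mest, Cdkn1c and Igf2. The median log2 ratio was 1.69 in WT and 1.56 in Irx5KO for the members, and 0.04 and 0.07 for all genes. Among maternally expressed members 7 of 14 were higher and 1 lower, and among paternally expressed members 12 of 19 were higher and 4 lower. Grb10 was counted with the maternal genes in this split, although in neurons it is known to be expressed from the paternal allele. The textbook assignment was not adjusted by cell type for any member. A second list of 42 other imprinted genes had 5 of 26 measured genes higher (Dlx5, Ppp1r9a, Rasgrf1, Rtl1 and Th) and 7 lower (Cd81, Dcn, Gab1, Gatm, Osbpl5, Pon2 and Pon3). These 42 were not left out of the clustering, and Dcn and Th were in marker sets used to name clusters.

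**Figure D2:**
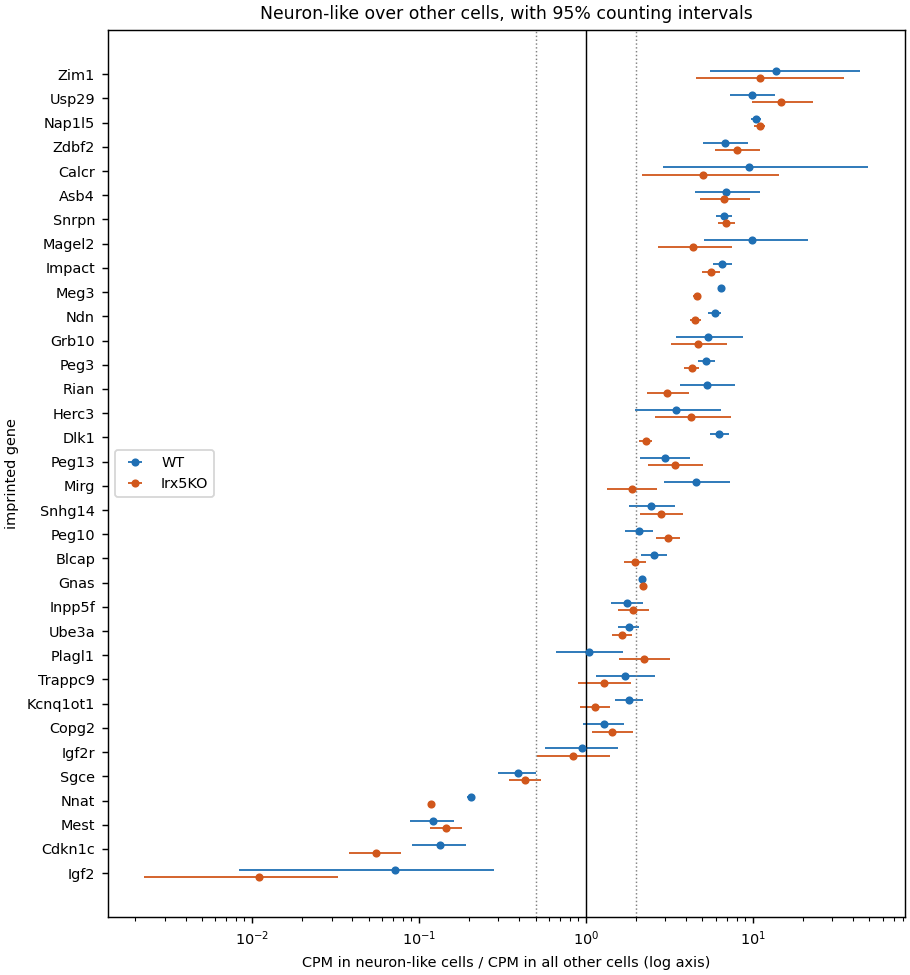
Ratio of the level in neuron-like cells to that in all other cells for each imprinted gene (log axis), in WT and Irx5KO, with bars for 95% counting intervals and dotted lines at 2-fold in each direction. Zim1 lies near 13.8 and 11.1 and Usp29 near 9.87 and 14.7 at the high end. Igf2, with 2 and 3 UMIs in neuron-like cells, lies near 0.072 and 0.011 at the low end.

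The Dlk1 to Mirg domain on chromosome 12 holds the paternally expressed Dlk1 (chr12:109452823-109463336, GRCm38), a transmembrane ligand related to Notch ligands, and the maternally expressed noncoding RNAs Meg3 (chr12:109541001-109571726), Rian (chr12:109603940-109661716) and Mirg (chr12:109729764-109749460), all on the plus strand. In neuron-like cells the Meg3 level was 7581 CPM in WT and 5628 CPM in Irx5KO, and in other cells it was 1172 and 1220 CPM. It was thus 6.47-fold (6.2 to 6.75) higher in neuron-like cells in WT and 4.61-fold (4.42 to 4.82) in Irx5KO. Rian, which carries a cluster of C/D small nucleolar RNAs, was at 86.2 and 101 CPM in neuron-like cells, 5.30-fold and 3.08-fold above other cells. Mirg, the host of a large microRNA cluster, was at 55.3 and 47.3 CPM, 4.57-fold higher in WT and 1.88-fold in Irx5KO, so it missed the 2-fold mark in 1 library. Dlk1 was at 807 and 742 CPM in neuron-like cells, 6.31-fold above other cells in WT but 2.28-fold in Irx5KO, where other cells held 325 CPM against 128 CPM in WT. Tanycyte-like cells gave 205 of the 275 Dlk1 UMIs of other cells in WT and 538 of the 594 in Irx5KO. This class held more UMIs in Irx5KO (783464 against 571505), and its Dlk1 level was also higher (687 against 359 CPM). All 4 genes had a smaller neuron-to-other ratio in the Irx5KO library. So did members of other domains, such as Ndn and Peg3, while Snrpn and Usp29 had a larger one. The share of all genes with a smaller ratio was not counted, so this is not read as a trait of the domain. Such ratios depend on which classes make up the other cells as well as on level, and these parts were not tested.

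Reads of these noncoding hosts do not measure the microRNAs cut from them, and the hosted microRNAs are given here by position only. RefSeq (GRCm38.p6) places 47 mature microRNAs within 8 of the members, of which 26 lie in Mirg, 6 in Rian and 3 in Meg3. These 47 have 46 different seeds, the stretch of bases 2 to 8 that pairs with targets, and the only shared seed is that of miR-453 and miR-496a-5p. The following are examples from the 3 noncoding hosts and both from Mest, with the seed in capitals.
miR-770-5p, in Meg3: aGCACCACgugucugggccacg
miR-370-3p, in Rian: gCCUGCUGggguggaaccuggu
miR-453, in Mirg: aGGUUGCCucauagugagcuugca
miR-496a-5p, in Mirg: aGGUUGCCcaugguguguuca
miR-134-5p, in Mirg: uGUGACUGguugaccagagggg
miR-410-3p, in Mirg: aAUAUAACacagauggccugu
miR-335-5p, in Mest: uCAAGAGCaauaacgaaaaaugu
miR-335-3p, in Mest: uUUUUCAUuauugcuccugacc

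The Prader-Willi domain on chromosome 7 holds paternally expressed Snrpn, Snhg14, Ndn, Magel2 and Mkrn3 and the maternally expressed ubiquitin ligase gene Ube3a. Snrpn (chr7:59982495-60140219), which encodes a spliceosomal protein, had neuronal levels of 1114 and 1115 CPM in WT and Irx5KO, 6.71-fold and 6.93-fold above other cells. Ndn, the growth and survival regulator necdin (chr7:62346569-62350262), was at 1614 and 1877 CPM, 5.92-fold and 4.52-fold above other cells. Magel2, a partner of ubiquitin ligases in endosomal sorting (chr7:62377010-62381640), was at 45.9 and 45.7 CPM, 9.86-fold and 4.4-fold higher. Snhg14, the long RNA that carries the Snord115 and Snord116 small nucleolar RNAs and runs antisense to Ube3a, was at 71.3 and 91.0 CPM, 2.47-fold and 2.82-fold higher. Ube3a was at 260 and 262 CPM, 1.81-fold and 1.64-fold higher, so its ratios were smaller than those of the paternal neighbours Snrpn, Ndn and Magel2. Mkrn3 had 2 UMIs among WT neurons and 0 among Irx5KO neurons.

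The Peg3 domain, also on chromosome 7, showed some of the highest neuron-to-other ratios. Peg3 (chr7:6703892-6730431), a zinc-finger gene linked to maternal behaviour and growth, was at 835 and 948 CPM in neuron-like cells, 5.28-fold and 4.30-fold above other cells. Usp29, a ubiquitin peptidase gene that starts next to Peg3 on the opposite strand (chr7:6730578-6967219), was at 225 and 201 CPM, 9.87-fold and 14.7-fold higher. Zim1, a maternally expressed zinc-finger gene (chr7:6671269-6696450), was at 32.0 and 30.4 CPM, 13.8-fold (5.58 to 44.0) and 11.1-fold (4.61 to 35.1) higher, with wide intervals from its few UMIs. The maternal and paternal members of this domain were thus all higher in neuron-like cells.

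Several members outside these domains were also higher in neuron-like cells in both libraries. Nap1l5, a nucleosome assembly protein family gene, had neuronal levels of 4224 and 4482 CPM, 10.5-fold (9.75 to 11.2) and 11-fold (10.2 to 11.8) above other cells. Impact, a regulator of the GCN2 stress kinase, was at 825 and 913 CPM, 6.57-fold and 5.60-fold higher. Zdbf2, a zinc-finger gene linked to postnatal feeding, was at 161 and 206 CPM, 6.78-fold and 8.03-fold higher. These 3 are paternally expressed genes. Asb4, a maternally expressed ankyrin-repeat gene of hypothalamic feeding neurons, was at 80.7 and 141 CPM, 6.94-fold and 6.76-fold higher. Grb10, an adaptor that dampens insulin receptor signalling and is expressed from the paternal allele in neurons and the maternal one elsewhere, was at 63.0 and 82.3 CPM, 5.42-fold and 4.70-fold higher. Calcr, the calcitonin receptor, was at 13.3 and 16.5 CPM, 9.50-fold (2.89 to 49.3) and 5.03-fold (2.16 to 14.4) higher. Gnas, which encodes the stimulatory G protein alpha subunit, was at 2855 and 3329 CPM, only 2.18-fold and 2.22-fold higher, since other cells held 1308 and 1502 CPM. It was at 720 CPM or more in every class of both libraries. Peg10, a retrotransposon-derived gene, was 2.08-fold and 3.11-fold higher in neuron-like cells.

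The other direction was seen for 5 members. Nnat, neuronatin, a small proteolipid of the endoplasmic reticulum, was at 1155 and 810 CPM in neuron-like cells and 5655 and 6849 CPM in other cells, 4.90-fold (4.67 to 5.13) and 8.46-fold (8.10 to 8.83) lower in neuron-like cells. Its level was 12880 CPM in WT and 13070 CPM in Irx5KO tanycyte-like cells and 12371 and 16564 CPM in ependymal-like cells. The few astrocyte-like cells (12 and 31) held 21908 and 11715 CPM, whereas oligodendrocyte-like cells held 133 and 112 CPM. At an equal depth of 1000 UMIs per cell, to which deeper cells were thinned, 91.6% of the WT and 90.0% of the Irx5KO tanycyte-like cells had at least 1 Nnat UMI, against 49.7% and 44.4% of neuron-like cells and 11.7% and 10% of oligodendrocyte-like cells. Without thinning the tanycyte-like shares were 95.7% and 94.3%. Set against the median of the other classes, each weighted alike, the log2 ratio of Nnat turned to 0.44 in WT and 0.95 in Irx5KO, so its lower neuronal level is relative to a few classes in which it is very high.

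Mest, which encodes a hydrolase of the endoplasmic reticulum and is a marker of growing tissue, was at 27.6 and 33.0 CPM in neuron-like cells, 8.23-fold and 6.84-fold below other cells. It was highest in tanycyte-like cells of both libraries, at 796 and 466 CPM, the only member of the 30 with that class as its highest in both. Against the median of the other classes its log2 ratio turned to 1.56 and 0.78. Cdkn1c, a maternally expressed inhibitor of cyclin-dependent kinases, was at 18.8 and 11.7 CPM in neuron-like cells, 7.5-fold and 18.1-fold below other cells. Its level was 785 CPM in WT and 2423 CPM in Irx5KO pars tuberalis-like cells (88 and 46 cells, too few in Irx5KO for a ratio), against 84.0 and 129 CPM in tanycyte-like and 248 and 460 CPM in mural-like cells. Sgce, epsilon-sarcoglycan, was at 43.7 and 47.3 CPM in neuron-like cells, 2.56-fold and 2.31-fold lower than in other cells, and was spread over tanycyte-like (133 and 126 CPM), OPC-like (oligodendrocyte precursor; 145 and 129 CPM) and VLMC-like (vascular leptomeningeal; 153 and 130 CPM) cells. Igf2, insulin-like growth factor 2, was found mainly in VLMC-like cells, at 123 and 799 CPM. H19, from the same domain as Igf2, had no UMI in neuron-like cells, and reached 29.2 and 187 CPM in the epithelial-like class. Phlda2 had 2 UMIs in all. Igf2r, the receptor that clears Igf2, had ratios of 0.944 and 0.837, and Plagl1 of 1.05 and 2.22, so neither was past 2-fold in both libraries.

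When the class with the highest level was taken among classes of at least 30 cells, 21 of 30 members had the same class in both libraries, against 49.3% of all genes. That class was neuron-like for 15 of the 30 (among them Meg3, Ndn, Snrpn, Peg3 and Impact), against 11.3% of all genes. It was pars tuberalis-like for 4 (Peg13, Trappc9, Cdkn1c and Kcnq1ot1), against 4.58%, with few UMIs there for Peg13 and Trappc9. Malat1 was at 29404 and 20551 CPM in this class, against 6258 and 4026 CPM in neuron-like cells, and its part in the levels of the noncoding Kcnq1ot1 and Peg13 was not tested. Kcnq1ot1, the paternally expressed noncoding RNA whose transcription silences the paternal Cdkn1c allele, was at 396 and 681 CPM in pars tuberalis-like cells and at 152 and 87.8 CPM in neuron-like cells. Inpp5f, an inositol phosphatase gene, was highest in oligodendrocyte-like cells (5.75% of all genes), at 204 and 195 CPM, against 118 and 127 CPM in neuron-like cells. Mest, as given above, was the 1 member highest in tanycyte-like cells, against 1.76% of all genes. The other 9 members had different highest classes in the libraries, for example Peg10, which was highest in tanycyte-like cells in WT and neuron-like cells in Irx5KO.

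Several imprinted genes overlap or lie inside one another, and their class profiles were compared pair by pair. Nnat (chr2:157560078-157562522, plus strand) lies within an intron of Blcap (chr2:157556362-157571274, minus strand), an apoptosis-linked gene. Blcap was at 218 and 235 CPM in neuron-like cells and 154 and 191 CPM in tanycyte-like cells, 2.56-fold and 1.97-fold above all other cells, while Nnat was lower in neuron-like cells. Nap1l5 (chr6:58905233-58907076, minus strand) lies within Herc3 (chr6:58831465-58920398, plus strand), a ubiquitin ligase gene. Herc3 was at 27.6 and 41.8 CPM in neuron-like cells, 3.49-fold and 4.24-fold above other cells, so this nested pair had the same direction. Mest (chr6:30723547-30748465, plus strand) overlaps the end of Copg2 (chr6:30747554-30896794, minus strand), a coat protein gene of vesicle transport. Copg2 was at 60.2 and 58.3 CPM in neuron-like cells, 1.28-fold and 1.44-fold above other cells, and at 71.7 and 51.1 CPM in tanycyte-like cells. The 3′ ends of Mest and Copg2 overlap, as do exons of Snhg14 and Ube3a. No source used here says whether counting used strand, so reads of these pairs cannot be told apart with certainty.

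Peg13 and Trappc9 are a further pair, with the noncoding Peg13 (chr15:72805600-72810324) inside Trappc9 (chr15:72589620-73061204) on the same strand. Peg13 was at 69.1 and 65.1 CPM in neuron-like cells, 2.97-fold and 3.40-fold above other cells, and Trappc9, a gene of vesicle tethering, at 35.4 and 33.0 CPM, 1.73-fold and 1.29-fold above other cells. Both were highest in pars tuberalis-like cells, Peg13 at 83.9 and 105 CPM and Trappc9 at 77.9 and 91.7 CPM. That class held only 166782 and 76348 UMIs, so these levels rest on few UMIs. The ranking took no account of counting intervals. Peg10 (chr6:4747306-4760517, plus strand) and Sgce (chr6:4674350-4747207, minus strand), which start beside each other, differed in direction, Peg10 being higher and Sgce lower in neuron-like cells.

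**Figure D3:**
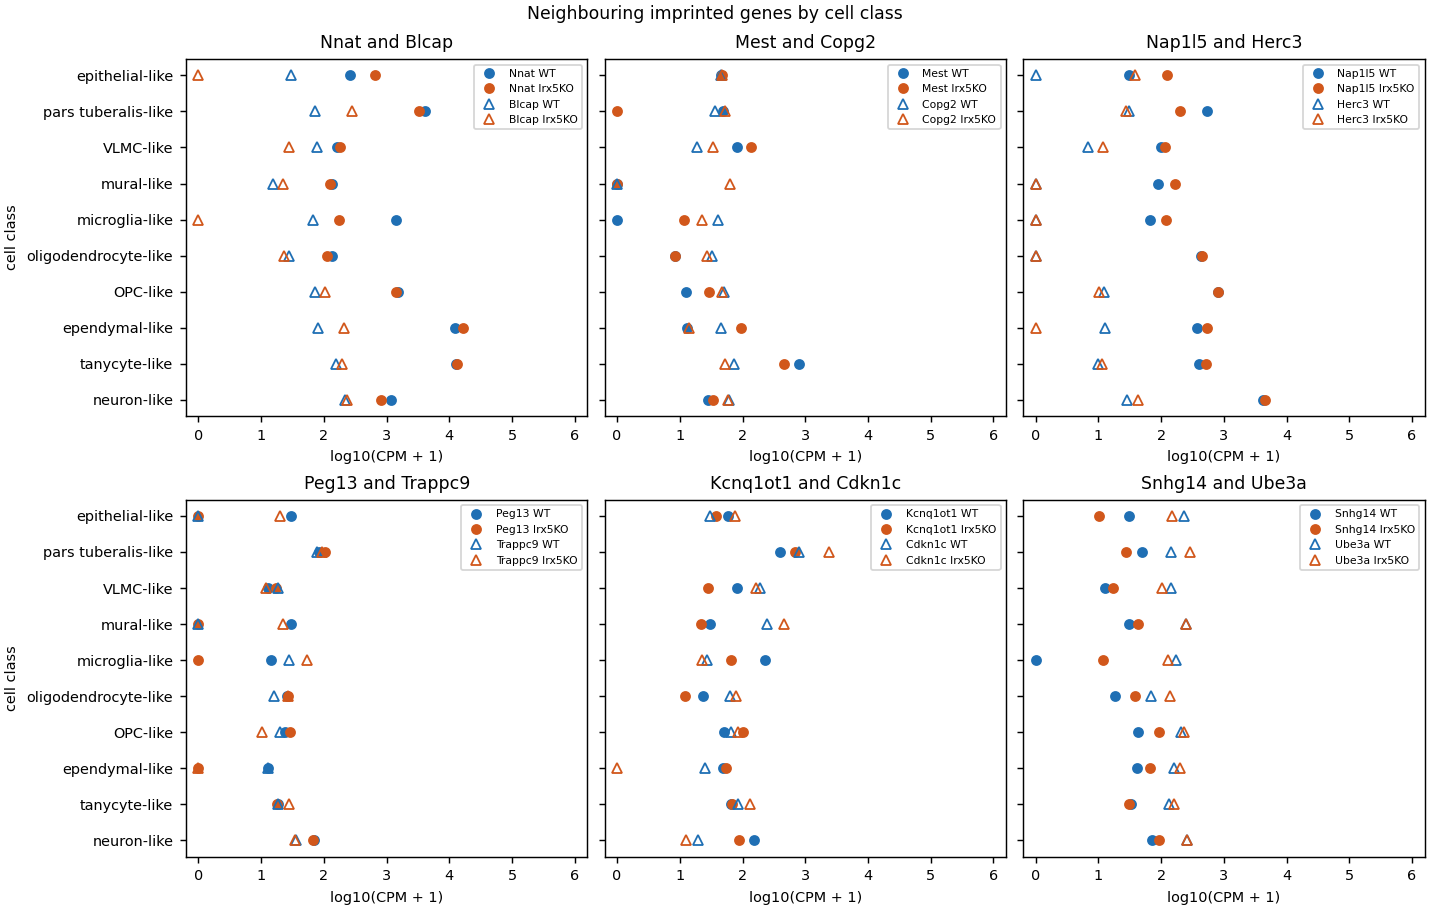
Levels of 6 pairs of imprinted neighbours in 10 cell classes, as log10(CPM + 1), with filled circles for the gene named first, open triangles for the second, blue for WT and orange for Irx5KO. Nnat lies at 12880 and 13070 CPM in tanycyte-like cells, where Blcap lies at 154 and 191 CPM.

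RefSeq promoter windows of 250 bases before the start were used for 30 members (46 windows), and none was used for Trappc9, H19, Peg10, Peg13, Sgce, Impact and Cdkn1c. They are shown for Nnat beside its host Blcap, for Nap1l5 and Mest from the other overlapping pairs, and for Meg3, the leading imprinted gene by UMIs of neuron-like cells. The search was for TGCCGC on either strand (GCGGCA on the printed strand), the core of the motif at which ZFP57 binds the methylated allele of control regions. Capitals mark each match. It was found in 9 of 46 windows (19.6%), which belong to 8 genes since some genes have overlapping windows, against 8.68% of the windows of all genes, and the median number of CpG pairs was 10 against 6.
Nnat promoter, chr2:157559828-157560077, plus strand: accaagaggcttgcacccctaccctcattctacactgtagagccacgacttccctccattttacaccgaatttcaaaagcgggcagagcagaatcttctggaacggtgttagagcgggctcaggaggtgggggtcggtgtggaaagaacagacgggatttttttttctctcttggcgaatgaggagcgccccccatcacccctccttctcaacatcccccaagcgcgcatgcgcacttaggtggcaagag
Blcap promoter, chr2:157566362-157566611, minus strand: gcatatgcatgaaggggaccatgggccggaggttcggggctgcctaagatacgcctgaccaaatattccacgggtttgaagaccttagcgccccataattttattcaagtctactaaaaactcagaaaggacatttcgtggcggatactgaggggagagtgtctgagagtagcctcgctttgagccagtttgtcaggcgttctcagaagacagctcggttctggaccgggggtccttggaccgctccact
Nap1l5 promoter, chr6:58907127-58907376, minus strand: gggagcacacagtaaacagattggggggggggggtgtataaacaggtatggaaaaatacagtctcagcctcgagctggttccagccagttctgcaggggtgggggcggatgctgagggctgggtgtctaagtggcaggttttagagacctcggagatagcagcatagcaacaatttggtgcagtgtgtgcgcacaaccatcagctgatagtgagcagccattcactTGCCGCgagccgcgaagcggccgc
Mest promoter, chr6:30737800-30738049, plus strand: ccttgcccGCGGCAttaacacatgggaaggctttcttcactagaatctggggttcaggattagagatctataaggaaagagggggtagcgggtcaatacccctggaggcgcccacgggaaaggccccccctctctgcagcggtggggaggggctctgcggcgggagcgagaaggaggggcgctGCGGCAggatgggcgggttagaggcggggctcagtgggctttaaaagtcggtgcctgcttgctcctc
Meg3 promoter, chr12:109540746-109540995, plus strand: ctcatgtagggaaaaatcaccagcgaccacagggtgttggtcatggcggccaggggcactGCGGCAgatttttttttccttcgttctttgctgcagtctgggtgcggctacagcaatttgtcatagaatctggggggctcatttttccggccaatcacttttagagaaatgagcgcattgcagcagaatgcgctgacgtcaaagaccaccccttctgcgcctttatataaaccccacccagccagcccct
The Mest window held 2 matches, those of Nap1l5 and Meg3 1 each, and those of Nnat and Blcap 0. A match is a description of the letters in the window only.

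Among the neuron-like cells, 11 clusters were compared, named by a marker set where the naming rule allowed it and otherwise by their leading genes. Of 25 members with enough UMIs, 18 had the same highest cluster in both libraries, against 22.3% of all genes measured. A cluster with markers of the suprachiasmatic nucleus, led by Vip and Avp (128 and 81 cells), was highest for Dlk1, Nnat, Rian and Blcap. In these SCN-like cells the Dlk1 level was 2257 CPM for WT and 2746 CPM for Irx5KO, against 0 and 82.2 CPM in the Kndy-like cluster led by Kiss1 and Tac2 (17 and 46 cells). Nnat was at 3543 and 3829 CPM in SCN-like cells and at 268 and 179 CPM in the Agrp-like cluster (13 and 41 cells). None of the 37 imprinted genes had been used to form these clusters.

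Meg3 was highest in the Foxb1-like cluster, at 15708 and 9944 CPM, and lowest in the Agrp-like cluster, at 1242 and 2907 CPM. Usp29 (407 and 279 CPM) and Peg13 (167 and 166 CPM) were also highest in the Foxb1-like cluster. The cluster led by Cck, Pdyn and Ppp1r17 was highest for Peg10 (505 and 492 CPM), Ndn (1971 and 2316 CPM) and Gnas (5347 and 6165 CPM). Asb4 was highest in the cluster led by Npvf and Pomc, at 170 and 239 CPM, and was at 9.26 and 26.1 CPM in the Foxb1-like cluster. Magel2 was highest in Agrp-like cells, at 78.3 and 101 CPM. The cluster led by Fezf1, Adcyap1 and Th was highest for Peg3 (1110 and 1296 CPM), Impact (1027 and 1141 CPM), Snhg14 (125 and 162 CPM) and Kcnq1ot1 (368 and 212 CPM). Zdbf2 was highest in the cluster led by Crabp1, Trh and Cartpt, at 236 and 312 CPM.

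Other members were more even over the neuron clusters. Snrpn ranged from 947 to 1280 CPM in WT and from 797 to 1372 CPM in Irx5KO, and its highest cluster differed between the libraries. Nap1l5 ranged from 2997 to 4963 CPM and from 3306 to 5128 CPM. The plot of 6 members over the neuron clusters shows peaks for Dlk1, Nnat and Peg10. Gnas also peaked, with its highest cluster at 1.95 times the median cluster in WT and 2.02 times in Irx5KO. For Peg10 these values were 3.51 and 2.09.

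**Figure D4:**
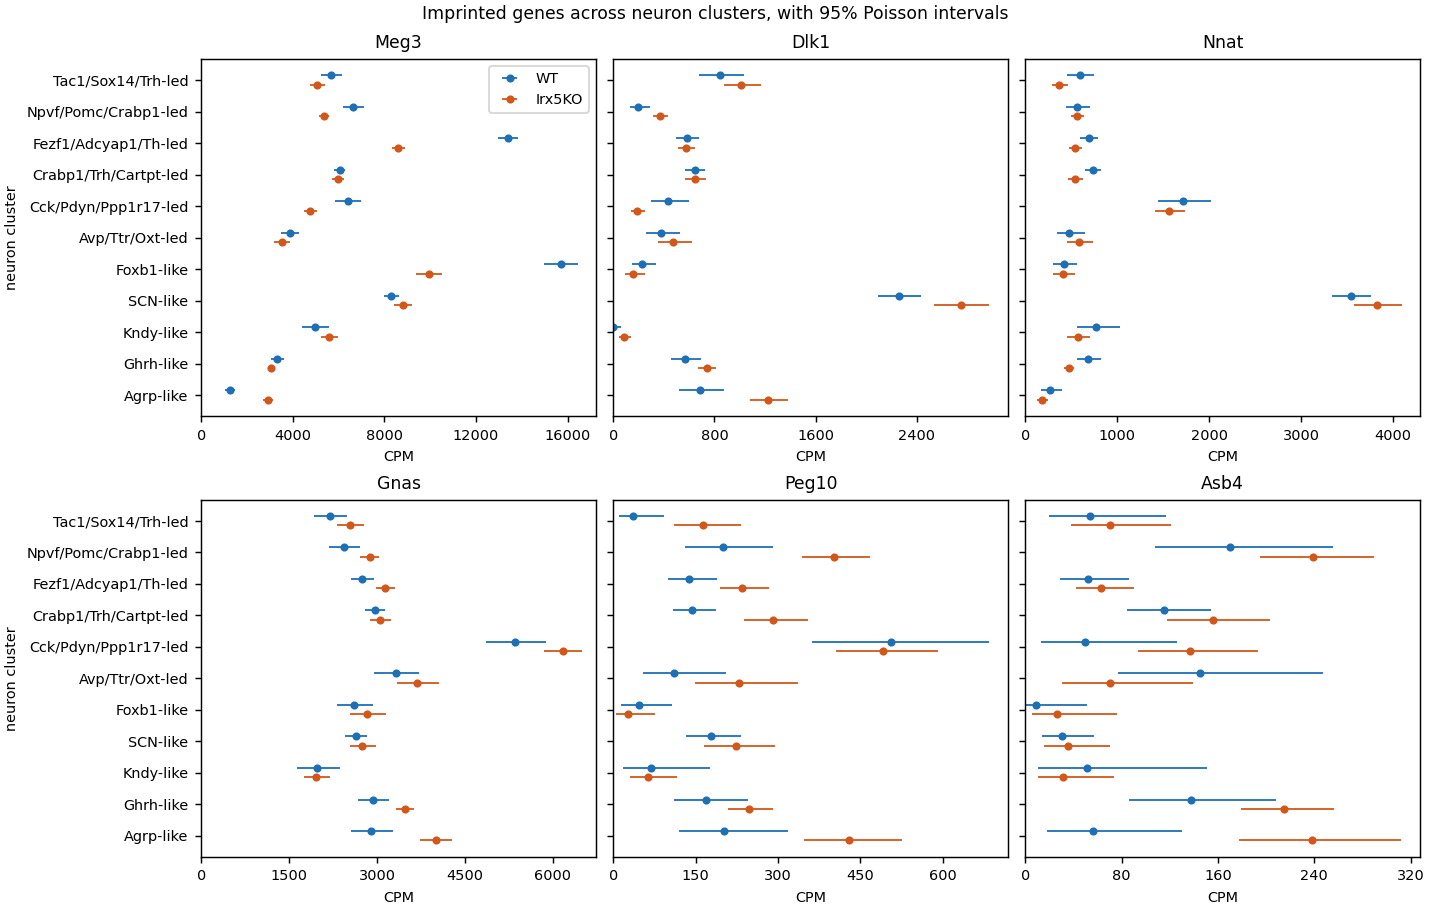
Level in CPM of Meg3, Dlk1, Nnat, Gnas, Peg10 and Asb4 in 11 clusters of neuron-like cells, with 95% counting intervals, for WT and Irx5KO. Dlk1 peaks at 2257 and 2746 CPM in SCN-like cells, and Asb4 at 170 and 239 CPM in the cluster led by Npvf and Pomc.

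Tanycyte-like cells fell in a pair of clusters with opposite profiles. The cluster led by Cyr61, Mlc1 and Crym (205 and 296 cells) had Nnat, which was among its 10 leading genes, at 17463 and 18220 CPM, and the one led by Scn7a and Cldn10 (77 and 104 cells) at 4895 and 3220 CPM. Mest was the reverse, at 262 and 126 CPM in the former and 1728 and 1115 CPM in the latter. Peg10 followed Mest, at 46.8 and 64.1 CPM against 518 and 349 CPM. Nap1l5, at 551 and 696 CPM against 144 and 197 CPM, and Ndn, at 559 and 849 CPM against 245 and 361 CPM, followed Nnat. Dlk1 was at 215 and 554 CPM against 609 and 941 CPM, on the side of Mest. These contrasts between the clusters were in the same direction in both libraries.

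Between genotypes, imprinted genes in neuron-like cells were near the level of all genes. Of 33 members measured, 4 were at least 1.5-fold higher in the Irx5KO library, or 12.1%, against 12.5% of 10905 genes. At least 1.5-fold lower levels were found for 2 members, or 6.06%, against 6.44%. The ratios ran from 0.578 to 2.48, and the median log2 ratio was 0.11 for the members and 0.07 for all genes. Among the 42 other imprinted genes, 3 of 21 measured were higher (Klhdc10, Phactr2 and Ppp1r9a) and 1 was lower (Zrsr1).

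The 4 higher members were Plagl1, Peg10, Asb4 and Herc3. Plagl1, a paternally expressed zinc-finger regulator of growth genes, had 38 UMIs (21 CPM) among WT neuron-like cells but 161 UMIs (52.2 CPM) among Irx5KO ones, a ratio of 2.48 (1.74 to 3.64). Within the cluster led by Npvf and Pomc the WT library gave 0 Plagl1 UMIs in 39 cells and the Irx5KO library 52 UMIs in 83 cells (122 CPM). Peg10 was at 157 and 279 CPM (285 and 860 UMIs), a ratio of 1.77 (1.55 to 2.03). Its ratio was 2.03 in the cluster led by Crabp1 and Trh and 0.975 in that led by Cck and Pdyn, where its level was highest. Asb4 was at 80.7 and 141 CPM, a ratio of 1.74 (1.44 to 2.12). Herc3, at 27.6 and 41.8 CPM, had a ratio of 1.51 (1.08 to 2.14), which was 1.47 without the Irx5KO cell that held most of its UMIs.

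Over the 9 neuron clusters with at least 20 cells in each library, Asb4 and Herc3 were higher in Irx5KO in 8, and Peg10 and Plagl1 in 7. Many of these directions rest on few UMIs. The floor of 50 UMIs for a ratio was reached in 6 of the 9 clusters for Peg10, 3 for Asb4, 1 for Plagl1 and 0 for Herc3. Asb4 was under 1.5 as a mean over cells and with neuron clusters weighted alike, with a ratio of 1.33 over these 9 clusters. Gnas was higher in all 9, at 2855 and 3329 CPM in all neuron-like cells, but its ratio of 1.17 (1.13 to 1.21) was under 1.5.

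The lower members were Kcnq1ot1 and Cdkn1c. The Kcnq1ot1 level was 152 CPM for WT and 87.8 CPM for Irx5KO (275 and 271 UMIs), 1.73-fold (1.46 to 2.05) lower, and lower in 8 of 9 neuron clusters. Only 3 of these 9 clusters reached the floor of 50 Kcnq1ot1 UMIs. Cdkn1c, at 18.8 and 11.7 CPM, was 1.61-fold (0.978 to 2.65) lower on 34 and 36 UMIs, and its interval includes no difference. Meg3 was 1.35-fold (1.32 to 1.38) lower and Nnat 1.43-fold (1.34 to 1.51) lower, both under the 1.5-fold mark, and Meg3 was lower in 8 of 9 neuron clusters. Nnat was lower in 6 of 9 and 1.06-fold lower in the mean over these clusters, and in SCN-like cells, where it was highest, its ratio was 1.08 (0.986 to 1.18). Malat1, a nuclear noncoding RNA, was also lower, with 6258 CPM for WT and 4026 CPM for Irx5KO neuron-like cells. A cluster of 52 WT and 64 Irx5KO cells led by Snhg11, with medians of 1038 and 1104 UMIs, held Malat1 at 31478 and 17356 CPM, Meg3 at 38433 and 24202 CPM and Kcnq1ot1 at 1352 and 727 CPM. Without this cluster the log2 ratio moved from -0.79 to -0.61 for Kcnq1ot1 and from -0.43 to -0.33 for Meg3, so both stayed lower. The Irx5KO to WT ratio in neuron-like cells was also taken for Neat1, Snhg11 and Miat, all noncoding RNAs. It was 0.841 for Neat1 (23 and 33 UMIs), whose interval spans 1, 1.12 (1.09 to 1.15) for Snhg11 and 1.54 (1.21 to 1.97) for Miat. Snhg11 was also in the marker set used to name neuron-like cells. The part of Malat1 in the remaining ratios was not tested.

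Genes of the Prader-Willi domain were close between the genotypes in neuron-like cells. The ratio was 1.0 (0.947 to 1.06) for Snrpn, 0.996 (0.754 to 1.32) for Magel2 and 1.01 (0.897 to 1.13) for Ube3a. Ndn had a ratio of 1.16 (1.11 to 1.22) and Snhg14 of 1.28 (1.03 to 1.59). Peg3, at 1.14 (1.07 to 1.21), Zdbf2, at 1.28 (1.12 to 1.48), and Grb10, at 1.31 (1.04 to 1.64), had ratios above 1 with intervals that leave out 1. The intervals of 16 of the 33 members left out 1, which with these depths happens at small ratios. The share of all genes with such intervals was not counted, so this count is not read as a trait of the members.

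**Figure D5:**
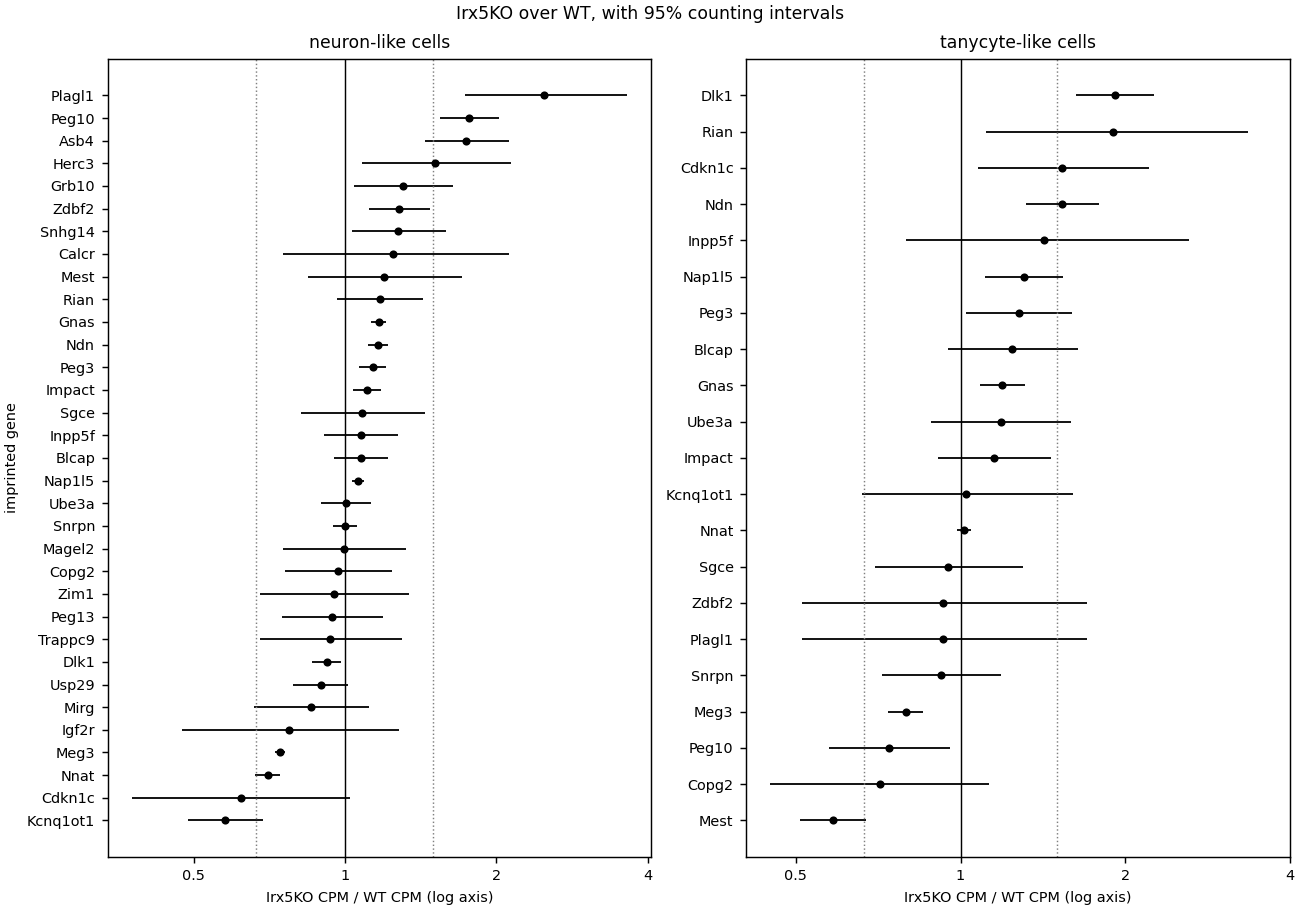
Ratio of the Irx5KO to the WT level of imprinted genes in neuron-like and tanycyte-like cells (log axis), with 95% counting intervals and dotted lines at 1.5-fold in each direction. In neuron-like cells the points run from 0.578 (Kcnq1ot1) to 2.48 (Plagl1), and in tanycyte-like cells from 0.585 (Mest) to 1.91 (Dlk1).

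In tanycyte-like cells 4 of 21 measured members (19%) were at least 1.5-fold higher in the Irx5KO library, against 10.5% of 5441 genes, and 1 (4.76%) was lower, against 8.09%. The median log2 ratio was 0.20 for the members and 0.02 for all genes. Dlk1 was at 359 CPM (205 UMIs) in WT and 687 CPM (538 UMIs) in Irx5KO, a ratio of 1.91 (1.63 to 2.26), and 1.78 without the Irx5KO cell with most of its UMIs. It was higher in both tanycyte-like clusters, with ratios of 1.54 and 2.58. At the same thinned depth, 12.6% of the WT tanycyte-like cells and 22.2% of the Irx5KO ones had a Dlk1 UMI, against 0.617% and 2.0% of oligodendrocyte-like cells. Without thinning the tanycyte-like shares were 14.2% and 25.8%.

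Mest was the 1 member lower in Irx5KO. It was at 796 CPM (455 UMIs) in WT and 466 CPM (365 UMIs) in Irx5KO tanycyte-like cells, 1.71-fold (1.49 to 1.97) lower, with ratios of 0.646 and 0.483 in the 2 clusters. Its thinned share of cells was 33.1% in WT and 20% in Irx5KO, against 2.73% and 2.61% of neuron-like cells, and the unthinned tanycyte-like shares were 41.1% and 31.0%. Ndn, at 444 and 682 CPM, had a ratio of 1.53 (1.32 to 1.79), Cdkn1c, at 84.0 and 129 CPM, of 1.53 (1.08 to 2.21), which was 1.47 without the Irx5KO cell with most of its UMIs, and Rian, at 35.0 and 66.4 CPM, of 1.90 (1.11 to 3.35). Nnat had a ratio of 1.01 (0.985 to 1.05), with 12880 and 13070 CPM. Summed markers of astrocytes were at 1591 and 2240 CPM in these cells and those of ependymal cells at 1822 and 1465 CPM, and their part in the ratios was not tested. Over the settings tried Mest stayed between 0.571 and 0.653, while Dlk1 ran from 1.41 to 2.31 and Nnat from 0.620 to 1.01.

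The smaller classes allowed few comparisons, and single cells decided several of them. In VLMC-like cells 3 of 7 members were at least 1.5-fold higher in Irx5KO, against 12.2% of genes, and 0 were lower, against 15%. Igf2 was at 123 CPM (21 UMIs) in WT and 799 CPM (148 UMIs) in Irx5KO, a ratio of 6.48 (4.09 to 10.8), but 1 Irx5KO cell held 100 of the 148 UMIs, and without that cell the ratio was 2.17 (1.27 to 3.81). Meg3 was at 317 and 637 CPM there, a ratio of 2.01 (1.45 to 2.83), and 1.63 without the Irx5KO cell with most Meg3 UMIs. Ndn, at 153 and 232 CPM, had a ratio of 1.52 (0.914 to 2.58), which was under 1.5 with TMM scaling and 1.42 without the Irx5KO cell with most of its UMIs. Summed neuronal markers came to 282 and 443 CPM in WT and Irx5KO VLMC-like cells, with 2 and 3 of 8 markers at 0. Endothelial markers came to 194 and 524 CPM there, with 4 and 1 of 7 at 0, and mural markers to 123 and 216 CPM, with 1 and 2 of 8 at 0. Meg3 was at 302 and 1043 CPM in the few endothelial-like cells (20 and 15). The part of these markers in the Meg3 ratio was not tested.

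In OPC-like cells Meg3 was the only member of 9 past 1.5-fold, against 7.6% of genes higher and 14.3% lower, at 533 and 906 CPM with a ratio of 1.70 (1.30 to 2.22). A single Irx5KO cell held 28 of its 98 UMIs there, and without it the ratio was 1.24. Neuronal markers summed to 495 CPM in WT and 915 CPM in Irx5KO OPC-like cells, with 1 of 8 at 0 in each, and their part in the Meg3 ratio was not tested. In oligodendrocyte-like cells 2 of 11 members were higher, against 9.18% of genes, and 0 lower, against 10.7%. Ube3a was at 68.8 and 139 CPM (28 and 37 UMIs), a ratio of 2.02 (1.20 to 3.42), and Ndn at 83.5 and 131 CPM, a ratio of 1.57 (0.952 to 2.6). TMM scaling, which assumes that most genes do not differ, moved the median of all genes by -0.16 (log2) in OPC-like and -0.11 in oligodendrocyte-like cells, and left the direction of these ratios as it was, though Ndn in oligodendrocyte-like cells moved under 1.5-fold. Neuronal markers summed to 260 CPM in WT and 409 CPM in Irx5KO oligodendrocyte-like cells and OPC markers to 1095 and 2089 CPM, and the Ube3a level in OPC-like cells was 209 and 231 CPM. The part of these markers in the ratios was not tested.

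In microglia-like cells (56 and 67) 2 of 3 members were at least 1.5-fold lower in Irx5KO, against 14.6% of genes, and 0 higher, against 16.7%. The Nnat level was 1413 CPM for WT and 170 CPM for Irx5KO, but 1 WT cell held 79 of its 106 WT UMIs, and without it the ratio was 0.451. Meg3 was at 1146 and 362 CPM, 1 WT cell held 43 of its 86 WT UMIs, and the ratio without it was 0.616. Tanycyte markers summed to 120 CPM in WT and 21.3 CPM in Irx5KO microglia-like cells, and ependymal markers to 200 and 31.9 CPM. Malat1 had a ratio of 0.649 (0.586 to 0.719) in these cells. The part of these genes in the Nnat and Meg3 ratios was not tested.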

How the data were processed

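The WT table as the authors deposited it holds UMI counts per gene and barcode. The Irx5KO and merged tables as the authors deposited them hold the natural log of (1 + UMIs scaled to a barcode total of 10000), as their values show. Whole UMIs were recovered from these for 100% of values within 1e-06, and the WT counts so recovered from the merged table differed from the raw ones in 0 of 4276208 UMIs. Raw counts had been assumed for both genotypes when the analysis was laid out, and the recovered UMIs took their place. STAR 2.6.0b, Seurat 3, Picard and bcl2fastq with build mm10 are named in the submitters' processing notes; no source used here gives their settings or the annotation.

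Barcodes needed 500 or more genes and no more than 20% of UMIs from mitochondrial genes (1851 of 2800 WT and 1972 of 2350 Irx5KO barcodes passed), and Scrublet removed 10 WT (0.540%) and 23 Irx5KO (1.17%) doublets. Cells of both libraries were clustered together without integration (scanpy 1.11.5, 2000 variable genes without the imprinted genes, 30 components, 15 neighbours, Leiden resolution 1, igraph 0.11.9). Marker sets passed for a cluster if they scored 1 or more and had 3 or more members 2-fold up. The name came from the passing set with the most markers in the cluster's top 10 genes, then the highest score, a rule set once the clusters had been seen. The neuron-like clusters led by Sst and by Vip had no marker of the neuron set in their top 10 and took the name as the only set that passed. UMIs were summed per class and library, with exact Poisson intervals for levels and exact binomial intervals for ratios at 95% (Python 3.11.15, scipy 1.17.1). Ratios between neuron-like and other cells needed 50 UMIs over both libraries, and ratios between genotypes 50 UMIs in the class and 50 cells in each library. Shares of cells came from cells thinned to 1000 UMIs, which left out 384 WT and 404 Irx5KO cells. TMM factors came from edgeR 4.0.16, and no test was run with it. Members with at least 200 UMIs are described by value, and genotype ratios are named past 1.5-fold; others named were chosen for their neighbours, domain or level. The intervals were tested on simulated data, as sums of neuron-like cells drawn from the counting model that the intervals assume. The simulation had no spread between cells, so it cannot show how the intervals hold with such spread. The members and lists were chosen with earlier results of these data known. Mature microRNAs and proteins were not analysed here.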

Additional observations from a re-analysis of the deposited data

Results flagged for a closer look

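Meg3 differed in direction between classes, and this difference was not tested. The Irx5KO to WT ratio of Meg3 was 1.70 in OPC-like cells and 2.01 in VLMC-like cells, but 0.316 in microglia-like cells. Single cells carried much of each value, since without the cell with most Meg3 UMIs the ratios were 1.24, 1.63 and 0.616.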

How the results depend on the processing

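With 1 library per genotype, neither biological nor technical spread between libraries could be measured. No paired analysis was possible because each genotype has 1 library. When the other classes were weighted alike by their median, the count of imprinted genes at least 2-fold lower in neuron-like cells moved from 5 to 1. Most neuron-to-other ratios depended on this weighting. Over both libraries, 37 left their counting interval, 4 that were past 2-fold changed direction, and 17 stayed within it. Under that setting the log2 ratio of Nnat turned to 0.44 in WT and 0.95 in Irx5KO, and that of Mest to 1.56 and 0.78. As a mean over cells, 2 members rather than 4 were at least 1.5-fold higher and 1 rather than 2 lower in Irx5KO neuron-like cells. With neuron clusters weighted alike, 1 was lower. Ratios against a median of 0 UMIs in the other classes could not be given. The cause of these moves was not tested. Kcnq1ot1 (0.446 to 0.655), Peg10 (1.56 to 2.01) and Plagl1 (2.23 to 2.84) stayed past 1.5-fold in neuron-like cells under all 14 settings, the reported one included, whereas Herc3 (1.28 to 1.61) did so in 8 and Cdkn1c in 11. In tanycyte-like cells Mest did so in all 12, Dlk1 and Cdkn1c in 10 and Ndn in 7. Leaving out the cell with most UMIs and leaving out the cluster with the highest Malat1 level were chosen after seeing the data. Genes with few UMIs per class, such as Calcr, Zim1 and Igf2r, are limited by depth.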
